A study of Mus musculus with 12 samples.

Results

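The mRNAs of 10 proteins that carry fatty acids into the cell or bind them inside it were followed in livers of mice fed a fast-food diet (FFD) with or without hepatocyte PPARγ. The 10 genes were taken by symbol from the 54532 genes of the count tables, and comprised the surface receptors Cd36 and Vldlr, the fatty acid binding proteins Fabp1, Fabp2, Fabp4 and Fabp5, and the fatty acid transport proteins Slc27a1, Slc27a2, Slc27a4 and Slc27a5. RNA was sequenced from whole liver of male mice homozygous for floxed PPARγ alleles, so that both genotypes carried the floxed gene. At 8 weeks of age the mice received an AAV8 vector with the hepatocyte-specific TBG promoter, which drove Cre in the mice labelled PPARγ-KO and eGFP in their control littermates, labelled WT and called wild-type here. All mice were then fed FFD (21% fat by weight, 0.2% cholesterol, 34% sucrose by weight) with fructose and glucose in the drinking water, for 2 or 5 months, and each of the 4 groups had 3 libraries. Because the TBG promoter acts in hepatocytes, the other cells of the liver kept their PPARγ alleles.

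Long-chain fatty acids reach the hepatocyte bound to albumin or are released from lipoproteins by lipoprotein lipase. CD36 is a membrane glycoprotein that takes up fatty acids, and VLDLR is a receptor for triglyceride-rich lipoproteins. The SLC27A proteins (FATP) combine transport with acyl-CoA synthetase activity, so that the incoming fatty acid is trapped as its CoA ester. The FABPs are small cytosolic carriers: FABP1 is the carrier of hepatocytes and enterocytes, FABP2 that of enterocytes, FABP4 that of adipocytes, macrophages and capillary endothelium, and FABP5 is broadly made, in macrophages and epithelia among other cells. Cd36, Vldlr and Fabp4 are known target genes of PPARγ, and several of the other genes are targets of the related receptor PPARα, both of which bind DNA with RXR at direct repeats of AGGTCA spaced by 1 base.

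The promoters of the 3 genes whose KO-labelled libraries all lay below wild-type at 2 months (Cd36, Vldlr and Slc27a4) are printed with that of Fabp1, the most abundant of the 10, whose groups overlapped at both times. The sequences are from RefSeq on GRCm38.p6, the assembly also named mm10, and each ends at or before the base upstream of the annotated start. Capitals mark AGGTCA or its complement TGACCT, and in Fabp1 also a 13-base match, on the other strand, to a direct repeat with 1 base between the sites (DR1) in which the fourth base of each AGGTCA is free. Cd36 is at chr5:17835897-17836146, minus strand, Vldlr at chr19:27216234-27216483, plus strand, Slc27a4 at chr2:29802384-29802633, plus strand and Fabp1 at chr6:71199629-71199826, plus strand.

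Cd36: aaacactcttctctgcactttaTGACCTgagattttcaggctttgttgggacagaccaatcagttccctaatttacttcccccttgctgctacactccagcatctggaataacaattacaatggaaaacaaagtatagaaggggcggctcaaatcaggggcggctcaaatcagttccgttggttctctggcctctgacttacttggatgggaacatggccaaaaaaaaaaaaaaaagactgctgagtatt
Vldlr: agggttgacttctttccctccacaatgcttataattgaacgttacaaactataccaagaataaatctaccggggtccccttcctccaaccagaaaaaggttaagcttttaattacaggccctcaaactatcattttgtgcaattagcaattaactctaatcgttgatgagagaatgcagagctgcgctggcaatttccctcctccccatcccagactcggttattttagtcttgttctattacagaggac
Slc27a4: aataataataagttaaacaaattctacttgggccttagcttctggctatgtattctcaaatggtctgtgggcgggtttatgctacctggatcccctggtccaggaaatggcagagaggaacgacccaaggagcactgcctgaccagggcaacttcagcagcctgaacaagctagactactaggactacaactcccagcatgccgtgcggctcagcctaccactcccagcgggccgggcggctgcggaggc
Fabp1: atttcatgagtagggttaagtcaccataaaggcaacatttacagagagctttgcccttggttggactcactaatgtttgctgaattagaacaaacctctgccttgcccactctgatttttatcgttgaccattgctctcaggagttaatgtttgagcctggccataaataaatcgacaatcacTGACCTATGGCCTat

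Within the 250 bases before the start, searched on both strands, AGGTCA was found in 14% of the 32851 promoter windows of the RefSeq table, the exact DR1 (AGGTCA, any base, AGGTCA) in 0.0335% and the looser DR1 (AGGNCA, any base, AGGNCA) in 0.338%. A window was listed for 7 of the 10 genes, and AGGTCA occurred in 3 of their 10 windows, those of Cd36 (228 bases before the start), Slc27a2 (220) and Fabp1 (67 and 9, the second of which lies beyond the stretch printed). The looser DR1 was found in Fabp1, as TGACCTATGGCCT 67 bases before the start, and it overlaps the AGGTCA match there. The windows of Cd36 and Slc27a2 lie inside the annotated spans of their genes, which extend further upstream. Vldlr and Slc27a4 held none of the 3 motifs in the windows listed.

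The libraries held 16367775 to 27452284 counts, and normalized CPM (each count over its library size, with edgeR's TMM scaling) are used below for levels. Chi-square per gene between replicates ran from 2.44 to 31.7, and the highest values involved wild-type replicate 1 at 2 months. Pparg, the targeted gene, was at 39.3 ± 1.92 CPM (SD, n = 3) in wild-type and 56.3 ± 8.85 in KO-labelled libraries at 2 months, a log2 difference of 0.52 (SE 0.107, edgeR adjusted p = 0.0309), and its log2 difference at 5 months was 1.15 (SE 0.0847, adjusted p = 2.57e-06). The call at 2 months was lost without wild-type replicate 2 or 3 or any KO-labelled replicate (adjusted p from 0.0574 to 0.117), and with library size alone (0.0729). The counts are summed over the whole gene and do not measure the floxed exons apart, so they do not test the deletion, and the level of the whole gene goes against the label. The study reports from Western blots that PPARγ protein was lost in its PPARγ-KO livers at both times, and these blots were not analysed here. Every direction below is therefore that of the libraries labelled PPARγ-KO. Hepatocyte markers were abundant in every library: the 10 of them summed to 55400 to 71300 CPM in wild-type and 73500 to 87800 in KO-labelled libraries, with Alb as the largest part. In whole liver, fewer cells of a type and less RNA per cell cannot be told apart.

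All 10 genes passed the filter on low counts in every comparison. Per kilobase of principal transcript (GENCODE M21), Fabp1 was the most abundant of the 10 in wild-type at 2 months, with 3330 to 3570 CPM per kb. Slc27a2 (386 to 479), Slc27a5 (271 to 372), Fabp2 (174 to 186) and Cd36 (80.5 to 109) followed, without overlap of neighbours over the 3 libraries. The next 3, Fabp4 (10.8 to 20.7), Slc27a4 (11.9 to 13.5) and Fabp5 (6.20 to 14.6), overlapped one another, and Slc27a1 (2.74 to 4.07) and Vldlr (1.58 to 1.98) were lowest. Among the 4 FABPs, Fabp1 took 94.1% to 95.4% of the summed level per kb and Fabp2 3.69% to 5.26%, which left 0.27% to 0.754% for Fabp4 and 0.175% to 0.479% for Fabp5. Slc27a2 and Slc27a5, the transport proteins of liver, took 44.5% to 58.1% and 39.4% to 53.4% of the SLC27A sum, and Slc27a4 and Slc27a1 the small remainder. In KO-labelled livers at 2 months Slc27a2 (368 to 477 CPM per kb) and Slc27a5 (372 to 403) overlapped. The length used changes parts of this order. The deposited length of Fabp4 is 4489 bases, as long as its whole locus, against 896 for its principal transcript, and that of Fabp5 is 3567 against 987. By deposited length Fabp4 in wild-type at 2 months was at 3.43 ± 1.10 CPM per kb (SD, n = 3), under Slc27a4 at 11.9 ± 0.842, and Slc27a2 (300 to 372) and Slc27a5 (254 to 349) overlapped there.

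**Figure D1:**
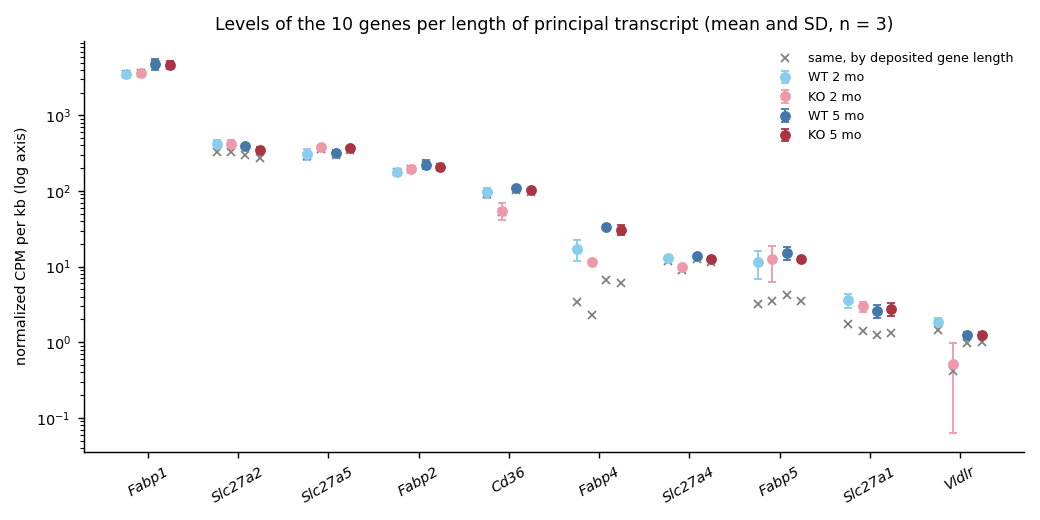
Level of each gene as normalized CPM per kb of principal transcript, on a log axis, for the 4 groups; points are means and bars SDs of 3 libraries, and grey crosses give the same means by the deposited gene length. Fabp1 lies above all others, the means run from 0.522 for Vldlr (KO-labelled, 2 months) to 4730 for Fabp1 (wild-type, 5 months), and Fabp4 and Fabp5 are the genes whose level falls most when the deposited length is used.

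The first comparison asked how the fatty acid uptake genes stood in KO-labelled livers after 2 months of FFD. Slc27a4 was the member that passed the test, and it fell. Cd36 and Vldlr were lower by more, and in all 3 libraries, but missed the threshold, with uneven values among the KO-labelled libraries. Slc27a5 was higher by 0.32 on the log2 scale without passing the test. The test called 0 members higher and 1 lower (edgeR, adjusted p under 0.05), when 1.78% of the 14573 genes tested passed as higher and 1.78% lower. Their median log2 difference was -0.14 against 0 for all genes tested, with 4 higher and 6 lower. In 3 of the 10 every KO-labelled library lay below every wild-type library, against 12.0% of all genes tested. At an unadjusted p under 0.05 (edgeR) there were 5 of the 10, against 18.9% of all genes tested.

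Cd36, the membrane fatty acid receptor (chr5:17781690-17888801, minus strand, mm10), was at 273, 372 and 336 CPM in wild-type replicates 1 to 3 at 2 months, and at 161, 241 and 158 CPM in the KO-labelled ones. The groups did not overlap, and KO-labelled replicate 2 was the highest of its group. The log2 difference was -0.81 (SE 0.193), or 0.571 times the wild-type level, with an edgeR adjusted p of 0.0758. The labels do not give a pairing of the libraries, and the check of replicate numbers did not establish one. With the replicate block the difference was -0.82 with an adjusted p of 0.00243. DESeq2 gave an adjusted p of 0.000161, and without KO-labelled replicate 2 the difference was -1.04 (adjusted p = 0.00845). Over the 14 alternatives the difference stayed between -1.04 and -0.70, and its adjusted p ran from 3.12e-05 to 0.253.

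Vldlr, the lipoprotein receptor (chr19:27216484-27254231, plus strand), showed the largest difference of the 10. Its level was 12.6, 15.8 and 15.6 CPM in wild-type and 2.12, 8.39 and 1.97 CPM in KO-labelled libraries, from 231 to 308 counts in the former and 41, 147 and 53 in the latter. Replicate 2 again stood above the other KO-labelled libraries, and all 3 lay below wild-type. The log2 difference was -1.86 (SE 0.603, adjusted p = 0.197), and without KO-labelled replicate 2 it was -2.84 with an adjusted p of 0.000442. It passed the threshold also in a fit of all 12 libraries (adjusted p = 0.0382). The other alternatives that adjust for multiple testing gave adjusted p values from 0.0873 to 0.441.

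Slc27a4 (FATP4), a transport protein made in many tissues (chr2:29802634-29817522, plus strand), was at 48.0, 54.0 and 54.9 CPM in wild-type and at 41.9, 41.1 and 37.2 CPM in KO-labelled libraries. The replicates of each group were close together and the groups did not overlap. The fitted log2 difference was -0.39 (SE 0.0823, adjusted p = 0.0330). The call was lost without wild-type replicate 2 (-0.36, adjusted p = 0.142) or 3 (-0.35, 0.119), and without KO-labelled replicate 1 (-0.42, 0.0986), 2 (-0.41, 0.0859) or 3 (-0.33, 0.115). It held without wild-type replicate 1 (adjusted p = 0.00549).

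Slc27a5 (FATP5), the liver enzyme that also activates bile acids for conjugation (chr7:12988346-12998192, minus strand), was at 851, 619 and 649 CPM in wild-type and 851, 879 and 922 CPM in KO-labelled libraries. Wild-type replicate 1 reached the KO-labelled range and the other wild-type replicates lay below it. The log2 difference was 0.32 (SE 0.121, adjusted p = 0.184), and without wild-type replicate 1 it was 0.48 (adjusted p = 0.00147). Of 14 alternatives 2 passed, with adjusted p values from 0.00147 to 0.497. Slc27a2 (FATP2), the other main transport protein of liver, was at 1400, 1160 and 1130 CPM against 1210, 1070 and 1390 CPM, with a log2 difference that rounded to 0 (SE 0.121, adjusted p = 0.994). Slc27a1 (FATP1), which is mainly a transporter of muscle and fat, was low, at 7.67 to 11.4 CPM in wild-type and 7.41 to 9.76 CPM in KO-labelled libraries, with a log2 difference of -0.28 (SE 0.183, adjusted p = 0.462).

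Among the binding proteins, Fabp1 was at 1840 to 1970 CPM in wild-type and 1810 to 2110 CPM in KO-labelled libraries at 2 months. The log2 difference was 0.05 (SE 0.0936, adjusted p = 0.833). Over the 12 libraries Fabp1 held 0.183% to 0.299% of all counts. Fabp2 differed by 0.13 on the log2 scale (SE 0.0784, adjusted p = 0.439). Fabp4 was at 9.72, 17.9 and 18.5 CPM in wild-type and 9.58, 10.7 and 10.9 CPM in KO-labelled libraries, where wild-type replicate 1 fell within the KO-labelled range. Its log2 difference was -0.57 (SE 0.228, adjusted p = 0.231), and without wild-type replicate 1 it was -0.81 (adjusted p = 0.0013). Of 14 alternatives 3 passed for Fabp4, with adjusted p values from 0.0013 to 0.54. Fabp5 was uneven in both groups, at 6.12, 14.4 and 13.8 CPM and at 10.8, 7.13 and 19.1 CPM, and its difference of 0.13 (SE 0.493, adjusted p = 0.928) turned to -0.17 without wild-type replicate 1 and to -0.35 without KO-labelled replicate 3.

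**Figure D2:**
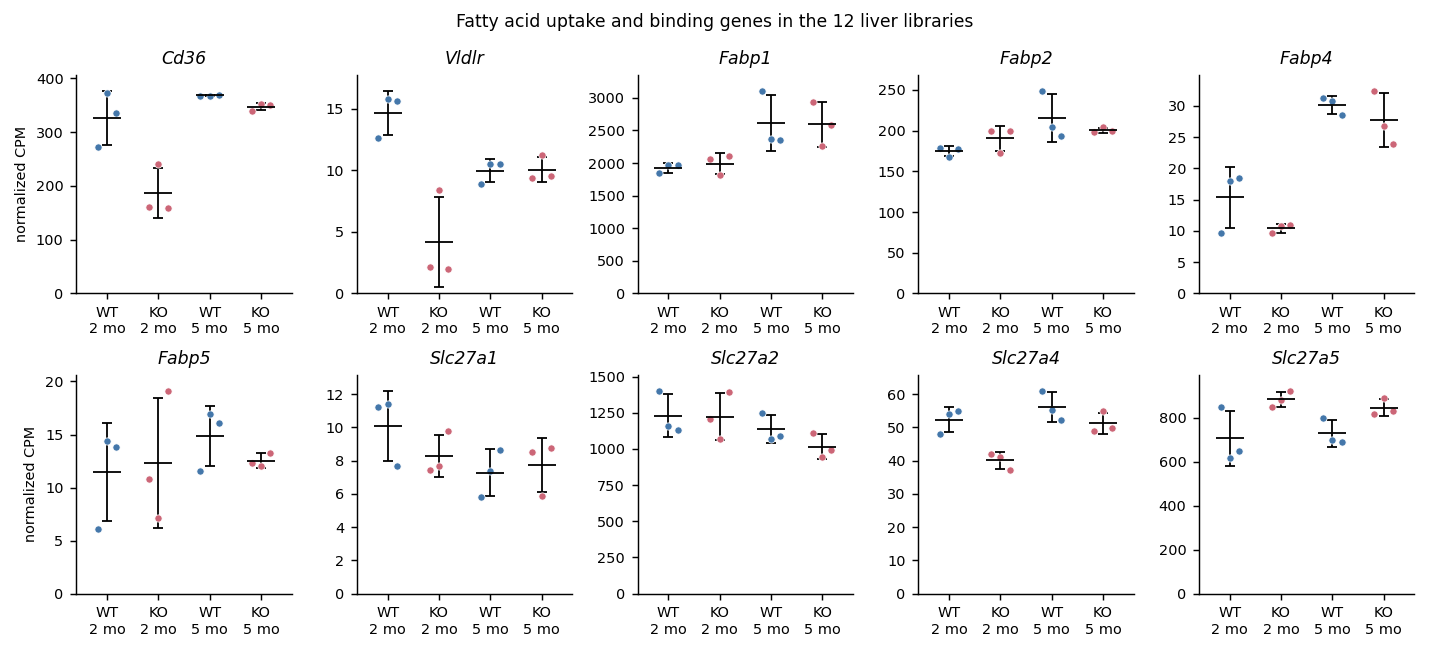
Normalized CPM of each gene in the 12 libraries, by group; points are libraries in the order of replicates 1 to 3, horizontal marks are means and bars SDs (n = 3), and every vertical axis starts at 0. The KO-labelled libraries at 2 months lie below all wild-type libraries for Cd36, Vldlr and Slc27a4, with replicate 2 nearest to wild-type for Cd36 and Vldlr, and at 5 months the genotypes lie close together for both of these genes.

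**Figure D3:**
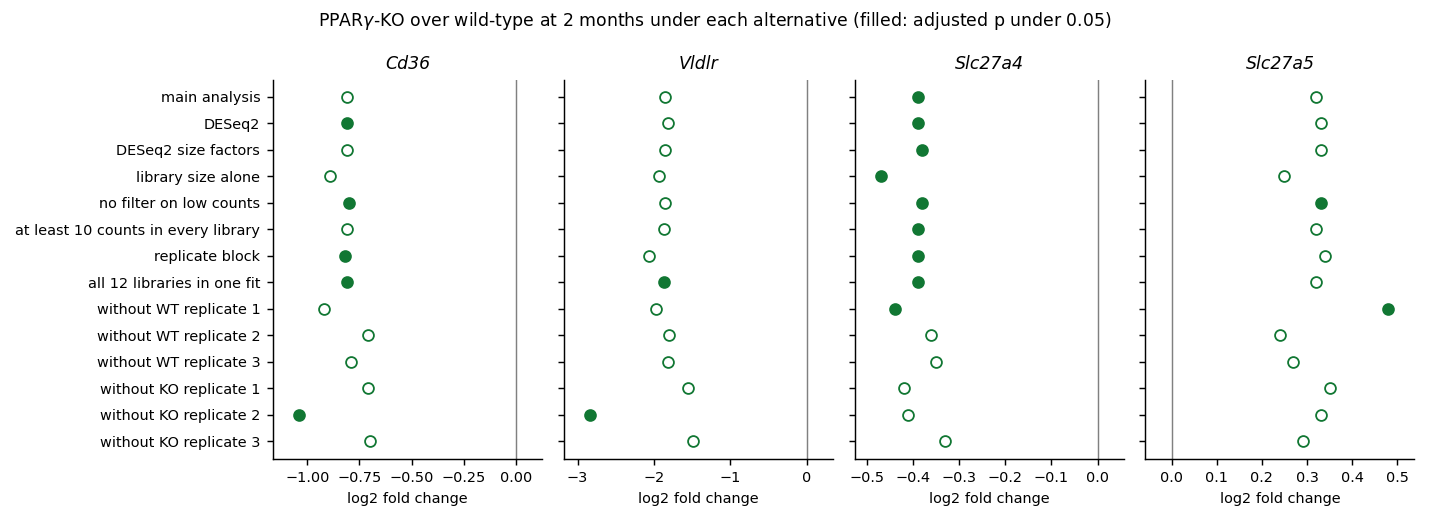
Log2 fold change of PPARγ-KO over wild-type at 2 months for Cd36, Vldlr, Slc27a4 and Slc27a5 under the main analysis and each alternative that adjusts for multiple testing, with filled points where the adjusted p was under 0.05. The direction is the same in every row of these 4 genes, and the rows without KO replicate 2 give -1.04 for Cd36 and -2.84 for Vldlr.

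After 5 months of FFD, 0 of the 10 genes were called in either direction by edgeR, when 8.90% of the 14138 genes tested passed as higher and 9.51% lower. At an unadjusted p under 0.05 there was 1 gene (Slc27a5), against 30.7% of all genes tested, and DESeq2 called the same gene. The median log2 difference of the 10 was -0.08, against -0.01 for all genes. The groups did not overlap for 1 gene that was higher (Slc27a5, against 15.9% of all genes) and 1 that was lower (Cd36, against 19.0%). Macrophage markers were lower in KO-labelled livers at this time, with 8 of 10 called, beside the 9.51% of all genes called lower.

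Cd36 was at 367, 368 and 370 CPM in wild-type at 5 months and at 340, 353 and 350 CPM in KO-labelled libraries. The groups were apart by little, with a log2 difference of -0.07 (SE 0.0616, adjusted p = 0.465). Vldlr was at 8.89, 10.5 and 10.5 CPM against 9.40, 11.2 and 9.54 CPM, and differed by 0.02 (SE 0.125, adjusted p = 0.933). Slc27a4 was at 60.9, 55.1 and 52.1 CPM against 49.0, 54.9 and 49.8 CPM, and differed by -0.12 (SE 0.0753, adjusted p = 0.331).

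Slc27a5 was at 799, 697 and 691 CPM in wild-type at 5 months and 817, 890 and 831 CPM in KO-labelled libraries. All KO-labelled libraries were above wild-type, with a log2 difference of 0.23 (SE 0.0776, edgeR adjusted p = 0.0615). DESeq2 gave an adjusted p of 0.0255, and without wild-type replicate 1 the difference was 0.30 (adjusted p = 0.00354). Of 14 alternatives 3 passed, with adjusted p values from 0.00354 to 0.229. The summed hepatocyte markers were at 55400 to 59000 CPM in wild-type and 73500 to 84900 in KO-labelled libraries at this time. Albumin (Alb) carried most of that sum, with means of 37000 and 57100 CPM. Of the 10 markers 4 were called higher and 0 lower, beside 8.90% and 9.51% of all genes tested, with 7 higher and 3 lower by sign. Their part in the result was not tested. Slc27a2 differed by -0.15 (SE 0.0854, adjusted p = 0.266) and Slc27a1 by 0.09 (SE 0.186, adjusted p = 0.788).

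The binding proteins at 5 months lay close together in the 2 genotypes. Fabp1 was at 3110, 2370 and 2360 CPM in wild-type and 2940, 2260 and 2580 CPM in KO-labelled libraries, where replicate 1 was the highest of either group. Fabp2 was at 249, 204 and 194 CPM against 198, 204 and 200 CPM. Fabp4 was at 31.2, 30.7 and 28.5 CPM against 32.4, 26.7 and 23.9 CPM, a log2 difference of -0.11 (SE 0.101, adjusted p = 0.516). Fabp5 was at 11.6, 16.9 and 16.1 CPM against 12.3, 12.0 and 13.3 CPM, a difference of -0.24 (SE 0.137, adjusted p = 0.268) that became -0.39 without wild-type replicate 1 (adjusted p = 0.0163). That was the 1 of 14 alternatives in which Fabp5 passed, and adjusted p values ran up to 0.753.

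**Figure D4:**
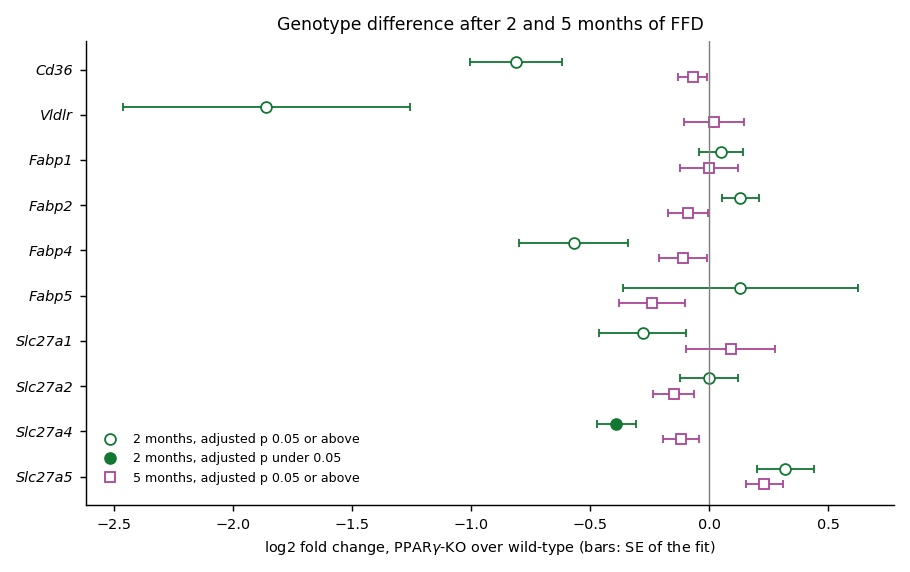
Log2 fold change of PPARγ-KO over wild-type for the 10 genes at 2 months (circles) and 5 months (squares), with bars for the SE of the fit and filled symbols where the edgeR adjusted p was under 0.05. Vldlr at -1.86 and Cd36 at -0.81 stand to the left at 2 months and near 0 at 5 months, and Slc27a4 at 2 months is the filled point.

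Whether the genotype difference itself changed between the times was tested in a fit of the 12 libraries. By edgeR 0 of the 10 genes passed at an adjusted p under 0.05, when 1.57% of the 15127 genes tested passed in either direction, and DESeq2 called 1. At an unadjusted p under 0.05 there were 3 of the 10, beside 2250 of the 15127 genes. The difference at 5 months minus that at 2 months was 0.72 for Cd36 (SE 0.207, adjusted p = 0.114), 1.88 for Vldlr (SE 0.622, adjusted p = 0.192) and 0.26 for Slc27a4 (SE 0.114, adjusted p = 0.294). For Cd36 DESeq2 gave an adjusted p of 0.0168, the replicate block gave 0.74 with an adjusted p of 0.013, and leaving out wild-type replicate 1 at 2 months gave 0.84 (adjusted p = 0.0451). Without KO-labelled replicate 2 at 2 months the values were 0.96 for Cd36 (adjusted p = 0.00363) and 2.86 for Vldlr (adjusted p = 1.46e-05). Of 19 alternatives, 6 passed for Cd36 (adjusted p from 3.94e-05 to 0.217) and 2 for Vldlr (1.46e-05 to 0.336). For Slc27a5 the difference between the times was -0.11 (SE 0.148, adjusted p = 0.799).

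In wild-type livers the test called 3 members higher and 1 lower at 5 months than at 2 months, when 23.8% of the 14491 genes tested passed as higher and 22.7% lower. The tables of the 2 times were saved in different years and it is not given whether the libraries were made together, so time and batch cannot be told apart in these comparisons. Fabp4 rose by 0.97 on the log2 scale (SE 0.219, adjusted p = 0.00932), from 15.4 ± 4.92 to 30.2 ± 1.48 CPM (SD, n = 3). Fabp1 rose by 0.44 (SE 0.12, adjusted p = 0.0119), from 1930 ± 75 to 2610 ± 429 CPM. Fabp2 rose by 0.30 (SE 0.0971, adjusted p = 0.0257), a call that was lost without replicate 2 (adjusted p = 0.0801) or 3 at 2 months (0.0649) or replicate 1 at 5 months (0.0676), and with library size alone. Vldlr fell by 0.56 (SE 0.133, adjusted p = 0.00565), from 14.7 ± 1.80 to 9.96 ± 0.928 CPM. Its groups did not overlap, as was so in that direction for 28% of all genes tested. The call of Vldlr was lost in a fit of all 12 libraries (-0.56, adjusted p = 0.302). Cd36 differed by 0.17 (SE 0.106, adjusted p = 0.209). Slc27a1 differed by -0.47 (SE 0.198, adjusted p = 0.0741), and without replicate 3 at 2 months by -0.64 (adjusted p = 0.022). It passed in 3 of 14 alternatives, with adjusted p values from 0.022 to 0.23.

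In KO-labelled livers, the test called 4 members higher and 1 lower at 5 months, when 22.7% of the 14478 genes tested passed as higher and 22.2% lower. Cd36 rose by 0.89 on the log2 scale (SE 0.177, adjusted p = 0.00953), from 187 ± 47.2 to 348 ± 7.00 CPM (SD, n = 3), and Slc27a4 rose by 0.35 (SE 0.0755, adjusted p = 0.00288), from 40.0 ± 2.49 to 51.2 ± 3.18 CPM. Wild-type at 5 months was at 368 ± 1.17 CPM of Cd36 and 56.0 ± 4.48 CPM of Slc27a4. Fabp4 rose by 1.41 (SE 0.119, adjusted p = 6.67e-06), from 10.4 ± 0.72 to 27.7 ± 4.37 CPM, and Fabp1 by 0.38 (SE 0.0967, adjusted p = 0.00931). Slc27a2 fell by 0.27 (SE 0.0967, adjusted p = 0.0406), and this call was lost without replicate 1 (adjusted p = 0.0868) or 3 at 2 months (0.137) or replicate 2 (0.143) or 3 at 5 months (0.122), and in the fit of all 12 libraries (0.0552). Vldlr was at 4.16 ± 3.66 CPM at 2 months and 10.0 ± 0.993 at 5 months. Its groups did not overlap, as was so in that direction for 28.2% of all genes tested. The Vldlr difference of 1.32 (SE 0.62, adjusted p = 0.153) became 2.29 without replicate 2 at 2 months (adjusted p = 1.03e-05). Vldlr passed in 3 of 14 alternatives, with adjusted p values up to 0.297. Fabp5 differed by an amount that rounded to 0 (adjusted p = 0.994), and by 0.48 without replicate 3 at 2 months (adjusted p = 0.0422). That was the 1 of 14 alternatives in which Fabp5 passed. These comparisons share libraries with the genotype comparisons above.

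Fabp4 and Fabp5 are known mainly from cells other than hepatocytes, so the markers of those cells are given beside them. The 10 macrophage markers summed to 414 to 551 CPM in wild-type and 456 to 518 in KO-labelled libraries at 2 months, and to 1160 to 1300 and 545 to 717 at 5 months. Of these markers, 9 of 10 were called higher with time in wild-type, and in KO-labelled livers 4 were called higher and 2 lower, beside 23.8% of all genes higher in wild-type and 22.7% higher and 22.2% lower in KO-labelled livers. The 10 endothelial markers summed to 387 to 471 and 419 to 454 CPM at 2 months and to 331 to 337 and 283 to 305 CPM at 5 months. Of these, 1 was called higher and 6 lower with time in wild-type, beside 23.8% and 22.7% of all genes. In KO-labelled livers 1 was called higher and 7 lower, beside 22.7% and 22.2% of all genes. The members of each list did not move together: with time in KO-labelled livers the macrophage genes Trem2 (2.74) and Gpnmb (3.81) and the endothelial gene Lyve1 (0.42) rose on the log2 scale, and in wild-type the endothelial gene Clec4g rose (0.67). The part of these cells in the values of Fabp4 and Fabp5 was not tested. Of the adipocyte markers Lep had 0 counts in all 12 libraries, Adipoq at most 1, and Plin1 and Retn at most 2. Cfd, known as adipsin and made by adipocytes, had 599, 70 and 98 counts in wild-type at 2 months, 120, 115 and 118 in wild-type at 5 months, and 0 in all 6 KO-labelled libraries. Of the 4 intestinal markers, given for Fabp2, Cdx2 was at 0 in every library, Alpi had a mean of 0.021 CPM in KO-labelled livers at 5 months and 0 in the other groups, and Vil1 had group means of 0.109 to 0.401 CPM. Lgals4, a galectin of the gut, was at a mean of 15.0 CPM in both genotypes at 2 months and at 4.34 in wild-type and 4.96 in KO-labelled livers at 5 months, and it fell with time by 1.79 (adjusted p = 0.000463) and by 1.60 (adjusted p = 0.0163) on the log2 scale. Their part in the values of Fabp2 was not tested.

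**Figure D5:**
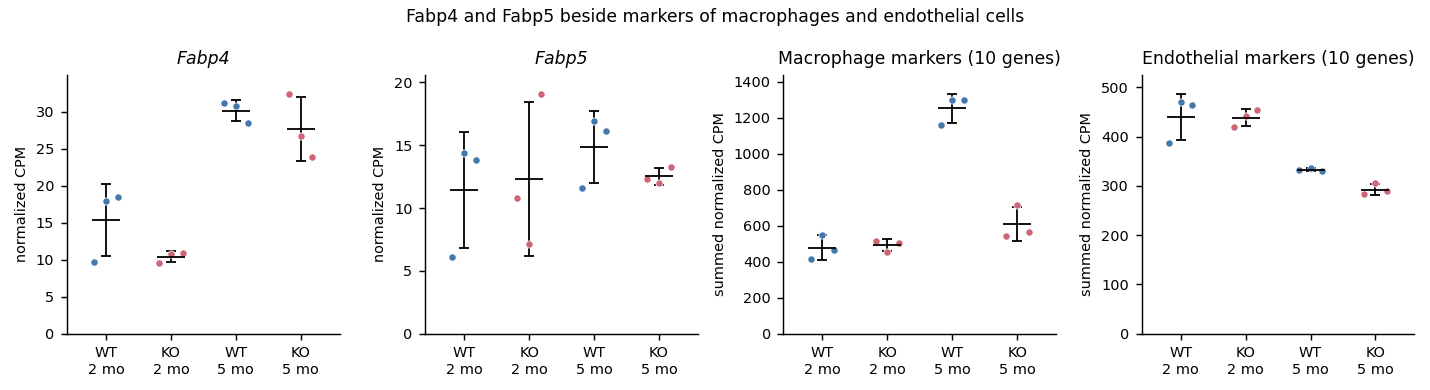
Fabp4 and Fabp5 (normalized CPM) beside the summed CPM of 10 macrophage and 10 endothelial markers in the 12 libraries; points are libraries, marks means and bars SDs (n = 3). At 5 months Fabp4 is at 28.5 to 31.2 CPM in wild-type and 23.9 to 32.4 in KO-labelled libraries, the macrophage sum at 1160 to 1300 and 545 to 717, and the endothelial sum at 331 to 337 and 283 to 305.

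Other genes of fatty acid and lipoprotein handling were taken from a list of 30, of which 22 passed the filter. At 2 months 1 was called higher and 1 lower, and at 5 months 6 were called higher and 2 lower, when 1.78% of all genes tested passed as higher and 1.78% as lower at 2 months, and 8.90% and 9.51% at 5 months. Their medians were -0.01 and 0.05 on the log2 scale against 0 and -0.01 for all genes. Lpl, the lipase that frees fatty acids from lipoproteins, was at 44.4, 58.4 and 54.4 CPM in wild-type and 31.0, 28.5 and 39.6 CPM in KO-labelled libraries at 2 months, and at 141, 203 and 214 against 68.2, 85.2 and 65.7 CPM at 5 months. The groups did not overlap at either time, and it fell by 0.66 (SE 0.141, adjusted p = 0.0415) and by 1.34 (SE 0.194, adjusted p = 0.00682). The call at 2 months was lost without wild-type replicate 2 (adjusted p = 0.157) or 3 (0.14) and without KO-labelled replicate 1 (0.149) or 2 (0.106), and in a fit of all 12 libraries (0.0671). Lpl is made by macrophages among other cells. The macrophage sums given above were lower in KO-labelled livers at 5 months and overlapped between the genotypes at 2 months. Their part in the values of Lpl was not tested. Lsr, the lipolysis-stimulated lipoprotein receptor, rose by 0.47 at 2 months (SE 0.0897, adjusted p = 0.0228) and by 0.25 at 5 months (SE 0.0679, adjusted p = 0.0201). These calls were lost without wild-type replicate 2 (adjusted p = 0.0925) or 3 (0.0795) and KO-labelled replicate 1 (0.107) or 3 (0.0841) at 2 months, and without wild-type replicate 2 (0.0799) or 3 (0.104) or KO-labelled replicate 2 (0.0822) at 5 months. At 5 months Lsr was also lost with library size alone and in the fit of all 12 libraries (0.0606).

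At 5 months Mfsd2a, the transporter of lysophosphatidylcholine that carries polyunsaturated fatty acids, was at 173, 139 and 138 CPM in wild-type and 267, 240 and 253 CPM in KO-labelled libraries, and rose by 0.77 (SE 0.0862, adjusted p = 7.36e-05), and Acsl5, an acyl-CoA synthetase, by 0.41 (SE 0.0792, adjusted p = 0.00299). The acyl-CoA binding genes Acbd4 and Acbd5 rose by 0.26 (SE 0.077, adjusted p = 0.0304) and 0.20 (SE 0.0617, adjusted p = 0.0404). Without each library in turn these last 2 passed the test only without wild-type replicate 1, with adjusted p values from 0.0596 to 0.152 and from 0.0782 to 0.173 without the others. Both calls were also lost with library size alone. The call of Acbd5 was lost with no filter on low counts, with the replicate block and in the fit of all 12 libraries (0.0877) too. Fabp7, the binding protein known from brain, was at 12.5, 12.8 and 11.7 CPM in wild-type and 4.34, 5.54 and 4.93 CPM in KO-labelled libraries at 5 months, and fell by 1.31 (SE 0.133, adjusted p = 2.89e-05).

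Over the 12 libraries, the genes whose log2 CPM followed that of Cd36 most closely were Sprr1a (Pearson's r = 0.971), Ndfip2 (0.97) and Rcan2 (0.965). Those closest to Vldlr were Cdkn1c (0.934), Gm11695 (0.929) and Pyroxd2 (0.918). Those closest to Slc27a4 were Atg12 (0.965), Tubb2a (0.96) and Acyp2 (0.95), and among those closest to Fabp4 were Aga (0.971) and Fez2 (0.97). The 12 libraries of such a correlation share genotype, time and depth, and the values are a description. Fabp2 and Slc27a2 overlap antisense or noncoding genes on the other strand (4933405D12Rik, 1 to 25 counts, and Gm26697, 1 to 10), small beside at least 3039 and 15708 counts on the genes themselves.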

How the data were processed

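RNA of 12 mouse livers was sequenced on the Illumina NovaSeq platform by Novogene. The authors deposited raw counts of reads per gene, whole numbers for 54532 genes in each library. Reads had been aligned to mm10, with STAR by the methods of the study and HISAT2 by the submitters' processing notes. The counting program, annotation version and use of strand are not given in the sources used here. Libraries held 16367775 to 27452284 counts.

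Groups followed the sample labels. In R 4.3.3, genes were filtered with filterByExpr, scaled by TMM and tested with the two-sided quasi-likelihood F-test of edgeR 4.0.16 (robust), with Benjamini-Hochberg adjustment across every gene in the fit, at a threshold of 0.05. Each pair of groups had its own fit of 6 libraries, and the difference between the times a fit of 12. The SE is that of the fit. The labels name repeats, not litters, and each p value weighs a group difference against the spread among the libraries of its fit. The code was tested on simulated counts. DESeq2 1.42.0, other scalings and filters, a replicate block, a fit of all libraries and leaving out each library were alternatives.

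At 2 months, deviations from the group means over 5000 genes correlated at 0.221, 0.325 and 0.139 for equal replicate numbers, and at up to 0.115 for unequal ones. At 5 months those for equal numbers correlated at -0.0751, -0.0618 and -0.185, and the time comparisons had values under 0.1 too. In wild-type across the times, values reached 0.237 for equal and 0.266 for unequal numbers. At 2 months every value for equal numbers lay above every one for unequal numbers. The other comparisons include libraries of 5 months, so they cannot decide whether the libraries at 2 months were paired. The labels give no pairing, and none was established.

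Named genes were the 10 members, Pparg, the pathway genes called in a genotype comparison, the 3 genes most correlated with each of 4 members (log2 CPM, prior count 2, mean of at least 1 CPM) and overlapping genes, of which some are not reported here. The members and lists were chosen with earlier results of these data known.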

Additional observations from a re-analysis of the deposited data

Results flagged for a closer look

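By the edgeR test of that difference over 12 libraries, the genotype difference differed between 5 and 2 months for Fabp7 and Pparg. None of the 10 uptake and binding genes passed. Of the 52 cell type markers tested, 0 passed as higher and 7 as lower, beside 1.57% of all genes in either direction. Among these 7 was Clec4g, named above (-0.77, SE 0.13, adjusted p = 0.00859), for which the alternatives were not run. For Fabp7 the genotype difference changed by -1.21 on the log2 scale (SE 0.277, adjusted p = 0.0391). Of 19 alternatives 9 passed for Fabp7, with adjusted p values from 0.000501 to 0.114. Its call was lost with the replicate block and without wild-type replicate 2 or 3 or KO-labelled replicate 3 at 2 months, or without any single library at 5 months. For Pparg the genotype difference was higher by 0.62 at 5 months (SE 0.145, adjusted p = 0.0432). Of 19 alternatives 9 passed for Pparg, with adjusted p values from 3.8e-05 to 0.122. Its call was lost with library size alone, without wild-type replicate 2 or 3 or KO-labelled replicate 1 or 3 at 2 months, and without any single library at 5 months other than KO-labelled replicate 3.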

How the results depend on the processing

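Of the 10 genes, the number called at 2 months was 1, and became 2 with DESeq2, 4 with no filter, 2 with the replicate block, 4 at an unadjusted p under 0.05 with a 1.3-fold change, 3 with all 12 libraries in the fit, and 0 to 3 without each library in turn. Over all genes tested the count of 519 became 988, 1562, 817, 1608 and 1153 under the same alternatives in that order, and 117 to 1577 without each library. At 5 months 0 of the 10 became 1 with DESeq2 and with no filter and 0 to 2 without each library, and 2602 of all genes became 1593 to 3078 without each library. For the change with time, 5 of the 10 in KO-labelled livers became 2 at the unadjusted threshold and 4 to 6 without each library, and in wild-type 4 became 3 to 4. Over all genes 6725 in wild-type became 5357 to 6968 and 6502 in KO-labelled livers 5374 to 6024 without each library. For the difference between the times, 0 of the 10 became 1 with DESeq2, no filter and the replicate block, 2 at the unadjusted threshold and 0 to 2 without each library, and 238 of all genes became 594 with DESeq2, 793 with no filter, 1563 at the unadjusted threshold and 83 to 567 without each library. The causes were not tested. At 2 months the replicate block changed the call of Cd36, given above, and of no other of the 10. The correlations for equal numbers did not show a pairing at 5 months or across the times in either genotype. Pairing was not checked for the difference between the times. With the block Fabp5 (wild-type with time), Vldlr (KO-labelled with time) and Cd36 (difference between the times, 0.74, adjusted p = 0.013) passed.

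Library size alone moved the median of all genes by -0.0687 to -0.0929 in the comparisons of groups, and calls split into 171 higher and 349 lower at 2 months, 889 and 1894 at 5 months, 2745 and 3872 with time in wild-type, and 2741 and 3725 in KO-labelled livers, against 259 and 260, 1258 and 1344, 3442 and 3283, and 3287 and 3215 with TMM. Of the log2 differences of the 10 genes under the alternatives, 664 kept direction and side of the threshold, 34 gained and 19 lost a call, and 33 turned, none of them called in the analysis as reported. With library size alone Fabp1 was at -0.03 at 2 months, Vldlr at -0.05 at 5 months, Slc27a5 at -0.03 with time in wild-type and Acbd5 at -0.04 at 2 months. With no filter Slc27a2 was at 0.01 at 2 months. Fabp1 at 5 months came to 0 with DESeq2, its size factors and the replicate block. Fabp5 with time in KO-labelled livers came to 0.02 with DESeq2, 0.11 with the block and 0 with 12 libraries. Without each library in turn, the differences that turned ran from -0.35 to 0.39 for Fabp5, -0.10 to 0.10 for Slc27a2, -0.01 to 0.11 for Acbd5 and -0.42 to 0.07 for Fabp7 at 2 months, from -0.09 to 0.14 for Fabp1, -0.16 to 0.02 for Fabp2, -0.05 to 0.26 for Slc27a1 and -0.06 to 0.07 for Vldlr at 5 months, from -0.05 to 0.20 for Slc27a5 with time in wild-type, from -0.27 to 0.48 for Fabp5 and -0.20 to 0.06 for Slc27a1 with time in KO-labelled livers, and, for the difference between the times, from -0.16 to 0.08 for Fabp1, -0.64 to 0.10 for Fabp5 and -0.02 to 0.13 for Acbd4. The SD of the replicates was 87.9% of the mean for Vldlr in KO-labelled livers at 2 months (41 to 147 counts), and 40.4% and 49.9% for Fabp5 in wild-type and KO-labelled livers at that time (112 to 279 and 125 to 514 counts). The part of depth in these values was not tested.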
